A study of Physcomitrium patens with 24 samples.

Results

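The loci described here are stretches of moss RNA that were protected by protein before abscisic acid (ABA) was added and again after 60 min, and in which no protected site was listed after 30 min. Overlapping sites of 3 deposited lists (0, 30 and 60 min) on the same strand were joined into loci. A locus was kept when both replicates of the dsRNase calls at 0 min and both at 60 min had a call in it, and the 30-min list had no site of any kind in it. The loci were thus selected on the presence and absence of calls in these lists, and the rule gave 487 loci of 70742 on chromosomes. Absence at 30 min and presence at 0 and 60 min are therefore how the loci were chosen and not a finding. They are called the returning loci below, which names the rule and implies no mechanism.

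RNA-binding proteins cover messenger RNA from synthesis to decay, and where they sit affects splicing, transport, translation and stability. Protein interaction profile sequencing (PIP-seq) crosslinks RNA to protein with formaldehyde, digests what is exposed with RNase, and reads the fragments that protein shielded. ABA is a hormone through which plants respond to water shortage, and moss responses to it are studied in protonema, the filamentous juvenile tissue. A protected site can be lost from a list because the protein left, because the RNA became scarcer, or because the call fell below its threshold. The lists carry no RNA levels and no read counts, so these cannot be told apart here, and neither can less RNA per cell and fewer cells that hold it.

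The study made 24 libraries from protonema of Physcomitrium patens, grown in liquid culture and collected after ABA for 30 or 60 min, with methanol, the solvent, given to the 0-min control. The descriptions disagree on the ABA dose, which one gives as 10 µM and another as 10 mM. No solvent-only group at 30 or 60 min is labelled, so the effect of ABA and that of elapsed time cannot be told apart. Protein-bound and structure-only libraries were made from each homogenate, with RNase V1, which cuts paired RNA (dsRNase), and RNaseONE, which cuts single-stranded RNA (ssRNase), and 2 replicates per time. The site names show 12 call sets, 1 for each time, RNase and replicate. The labels do not say that replicates were separate cultures, so the spread behind the p-values may be technical. DsRNase sets held 36283 to 43653 calls, except replicate 2 of 30 min, with 29773. The tissue could not be set against marker genes, because the sites carry no gene names.

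Full absence from a list, with no site of any kind, was rarest at 30 min. Among 12759 loci called in both dsRNase replicates of 0 and 60 min, 487 (3.82%) had no 30-min site. The same rule applied to 0 min left 2919 of 14162 loci without a site (20.6%), and applied to 60 min it left 819 of 12769 (6.41%). At 30 min a further 67 loci had sites with ssRNase calls alone. Replicate 1 alone supported 1562 loci at 30 min and replicate 2 alone supported 751, so most loci with a single dsRNase call at 30 min lacked it in the set with the fewest calls. As shares, replicates 1 and 2 alone supported 12.2% and 5.89% of loci at 30 min. The same rule gave 9.70% and 5.98% at 60 min, and 4.60% and 4.72% at 0 min. The remaining 9892 loci were called in all 6 dsRNase sets and are called constant loci below. They were 77.5% of the loci compared for 30 min, 77.5% for 60 min and 69.8% for 0 min. With the dsRNase and ssRNase calls of 30-min replicate 2 both ignored, 1134 loci met the rule, and with those of replicate 1 ignored, 1812. How much of the 487 rests on the low call number of 30-min replicate 2 was not tested.

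More returning loci lay on the minus strand than on the plus strand. Of the returning loci, 302 (62.0%) lay on the minus strand, against 47.8% of the 12759 loci called at 0 and 60 min in any 30-min state. As a share of such loci, 4.95% on the minus strand and 2.78% on the plus strand lacked a 30-min site. The lean was not tied to full absence: 61.4% of the loci called at 30 min in dsRNase replicate 2 alone and 70.1% of those with 30-min ssRNase calls alone lay on the minus strand, against 50.4% of those called in dsRNase replicate 1 alone. The loci without a 0-min site were on the minus strand in 46.8% of cases and those without a 60-min site in 43.8%. The call sets themselves differed in strand. For dsRNase replicates 1 and 2, the minus strand's percentages of calls were 44.3 and 53.7 (0 min), 40.4 and 44.3 (30 min), and 45.9 and 47.3 (60 min). The 30-min percentages were at or below those of the other times, and their part in the lean of the returning loci was not tested. With 1 replicate of a time left out, its dsRNase and ssRNase calls together, 53.0% to 67.0% of the loci were on the minus strand.

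**Figure D1:**
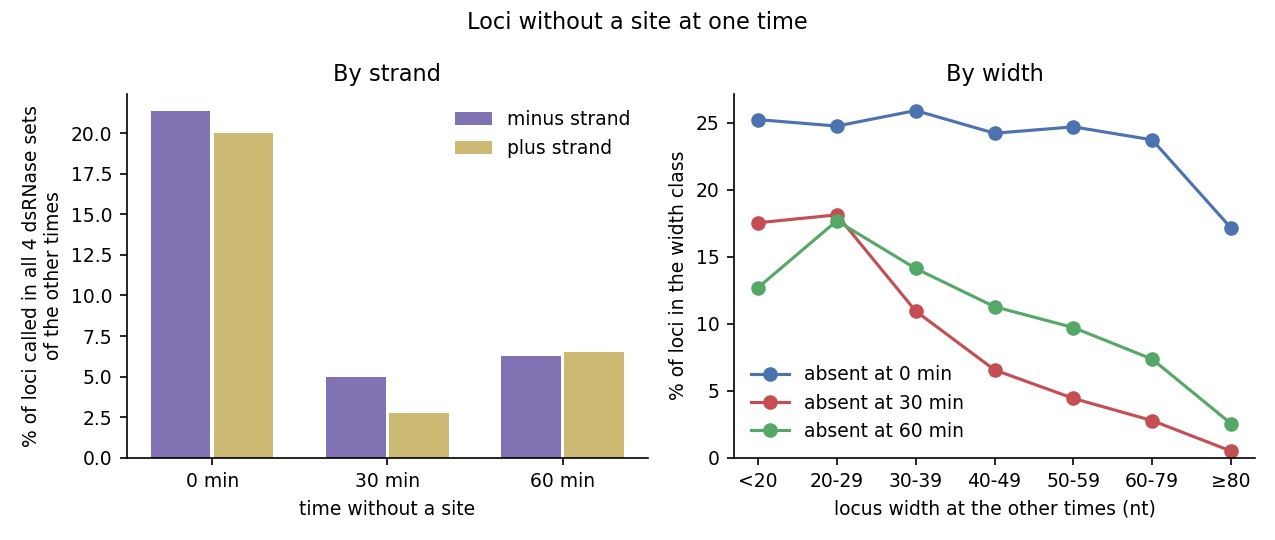
Left, bars give the share of loci without a site at 0, 30 or 60 min among loci called in all 4 dsRNase sets of the other times, by strand. Right, points give that share by locus width at the other times; at 30 min it runs from 18.1% at 20 to 29 nt to 0.503% at 80 nt or more, and 4.95% of minus-strand loci against 2.78% of plus-strand loci lack a 30-min site.

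The returning loci were short and of middling score. Their joined width ranged from 4 to 219 nt with a median of 40 nt, against 87 nt for the 0- and 60-min sites of constant loci and 51 nt for the 2313 loci with 1 dsRNase set at 30 min. Among loci called at 0 and 60 min, 18.1% of those 20 to 29 nt wide had no 30-min site, 6.56% of those 40 to 49 nt wide and 0.503% of those of 80 nt or more. A wide locus offers more nt for a 30-min site to overlap, and whether that bears on the decline was not tested. Loci absent at 60 min also declined with width, at 17.7%, 11.3% and 2.54%. Loci absent at 0 min depended little on width below 80 nt, at 24.7% and 24.2% in the first pair of classes and 17.1% in the widest. The score in the lists is the authors' own and has no stated unit. Classes of loci were therefore compared by its rank within a list (the percentage of sites scoring no higher). Raw scores are printed below for named loci. It is not stated that scores of different lists share a scale, so differences in score between times are descriptions. The median rank of the returning loci was 56.8 at 60 min and 65.0 at 0 min. Constant loci stood at 82.6 and 87.3. Among sites of 30 to 60 nt with a single call in each dsRNase replicate and no ssRNase call, the returning loci ranked at 56.6 and constant loci at 69.1 in the 60-min list, and at 63.1 and 73.3 in the 0-min list. Of the loci whose lower rank of both times was 80 or more, 0.232% (11 of 4742) lacked a 30-min site, against 9.90% (308 of 3110) of those ranked 40 to 60. The same classes gave 0.876% and 16.5% for loci absent at 60 min, and 15.3% and 28.1% for loci absent at 0 min.

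The 60-min sites lay in nearly the same place as the 0-min sites. In 471 returning loci with 1 site at 60 min and 1 at 0 min, the median overlap was 87.5% of the stretch covered by either, and the middle of the site had moved by a median of 1.5 nt. Of these, 27 (5.73%) shared under 50% of that stretch and 333 (70.7%) shared at least 80%. The 60-min site was narrower than the 0-min site in 244, wider in 157 and equal in 70. Constant loci did much the same, with a median overlap of 89.5%, and at widths of 30 to 60 nt the medians were 87.4% for the returning loci and 89.6% for constant loci.

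Named here are the 10 loci whose lower rank of both times was highest among the 111 returning loci with no 30-min site within 500 nt on their strand. Of the 10, 9 were the single locus of their region (sites less than 500 nt apart on a strand), and 8 were 18 to 26 nt wide. The limit of 500 nt to a 30-min site favours lone loci, which made up 49 (10.1%) of all returning loci. On chromosome 17 (9395302 to 9395326, plus strand) a 25-nt site had identical borders at both times, with scores of 74.3 at 60 min and 107.8 at 0 min. It had an ssRNase call in replicate 1 at 60 min and in both replicates at 0 min, and the nearest 30-min site of its strand lay 74682 nt away. On chromosome 15 (1540049 to 1540069, minus strand) a 21-nt site likewise had the same borders at both times, with scores of 73.3 at 60 min and 123.5 at 0 min. A 22-nt locus on chromosome 8 (7688344 to 7688365, plus strand) scored 77.4 at 60 min and 76.9 at 0 min, and had ssRNase calls in both replicates at 60 min and in replicate 2 at 0 min. All 10 had exactly 1 call in each of the 4 dsRNase sets of 60 and 0 min. Scores at 60 min were below those at 0 min in 7 of them, and so were their ranks within the lists.

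The other 7 of these loci varied more in score than in place. A 26-nt locus on chromosome 2 (1136907 to 1136932, minus strand) had the highest 0-min score of any returning locus, 166.9, against 50.2 at 60 min, where both ssRNase replicates called it; neither did at 0 min. The 25-nt site on chromosome 9 (1310696 to 1310720, minus strand) scored 41.8 at 60 min and 125.6 at 0 min with unchanged borders. Chromosome 6 held a pair, 1 of 24 nt (18745265 to 18745288, minus strand) with near-equal scores of 51.9 at 60 min and 50 at 0 min, and 1 of 30 nt (5381405 to 5381434, minus strand) with 53.4 and 41.8. The locus on chromosome 19 (3834278 to 3834299, plus strand, 22 nt) kept its borders and scored 34.6 at 60 min and 74.9 at 0 min. That on chromosome 14 (14700016 to 14700055, minus strand) was 40 nt wide and scored 36.8 and 56.8 at the same times. The narrowest, on chromosome 22 (14160788 to 14160805, plus strand, 18 nt), scored 34.2 at 60 min and 49.2 at 0 min and was the single returning locus overlapped by a site of the opposite strand at any time. The opposite region (14155141 to 14164136) had 0 and 1 (0 min), 38 and 46 (30 min) and 39 and 37 (60 min) dsRNase calls in replicates 1 and 2, so at this place calls on one strand were absent while those on the other had become many. At 60 min both the locus and the opposite region were called.

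Widths of 18 to 26 nt were less common in the other classes of loci. Of the 49 returning loci that were the sole locus of their region, 10 (20.4%) were 18 to 26 nt wide, against 8.47% of 177 such loci with 1 dsRNase set at 30 min and 1 of 474 (0.211%) constant loci. Among returning loci with company in their region the share was 8.45%, and among constant loci with company it was 1.35%. These shares are descriptions, since the share of loci without a 30-min site varied with width. The width window is also that of most loci named above for score rank, and those are counted here. They make up most of the 10 lone returning loci in the window, and the shares were not taken without them.

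The widest returning loci were less alike at both times. On chromosome 8 (15485769 to 15485987, minus strand) the 60-min list held 2 separate sites of 22 and 50 nt, each called in 1 dsRNase replicate, with a top score of 8.39 (rank 20.7), where the 0-min list held 1 site of 219 nt with a score of 75.3 (rank 89.9), and a 30-min site lay 24 nt away. On chromosome 14 (15583036 to 15583158, minus strand) the 60-min site was 123 nt wide and the 0-min site 75 nt. The locus on chromosome 2 (11057616 to 11057755) was 140 nt wide on the minus strand, with a 30-min site 35 nt away. The plus-strand locus on chromosome 16 (9435377 to 9435505) spanned 129 nt and had one 225 nt away. On chromosome 18 (14523843 to 14523960) the minus-strand locus spanned 118 nt and had one 95 nt away.

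Most returning loci had a 30-min neighbour close by. The nearest 30-min site on the strand lay a median of 110 nt away, within 50 nt for 179 loci (36.8%), within 500 nt for 376 (77.2%) and farther for 111 (22.8%). Loci without a 60-min site were farther from their nearest 60-min site (median 239 nt, 36.1% beyond 500 nt), and loci without a 0-min site farther from a 0-min site (median 1927 nt, 67.1% beyond 500 nt). The nearest 30-min site belonged to a locus that also had sites at 0 and 60 min in 332 cases (68.2%), to one with a 0-min site alone in 73, with a 60-min site alone in 32, and to a locus of 30 min alone in 50. It lay on the 5′ side in 246 and on the 3′ side in 241. These counts were not taken for other classes of loci, so they describe the returning loci without a comparison. Loci beyond 500 nt were on the minus strand in 71.2% of cases and those within 50 nt in 57.0%.

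**Figure D2:**
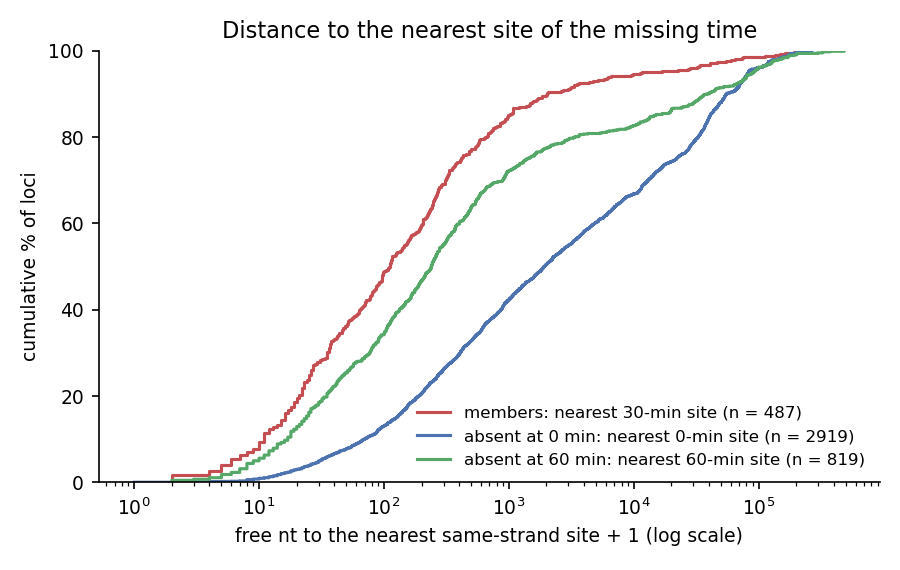
Curves give the cumulative share of loci against the free nt to the nearest same-strand site of the time at which they had none (log axis, 1 nt added). Medians are 110 nt for the 487 returning loci (called members in the plot), 239 nt for loci absent at 60 min and 1927 nt for loci absent at 0 min.

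Values at the edge of the rule show how close some decisions were. On chromosome 20 (10527655 to 10527685, minus strand) a locus was kept although a 30-min site of 89 nt touched it with 0 free nt between them, and on chromosomes 13 (15448221 to 15448248) and 3 (12469684 to 12469736, both minus strand) 1 nt lay between. Just outside, 1798 loci of 0 and 60 min had a single call set at 30 min, with a median 30-min rank of 35.4. The highest ranked was a 21-nt locus on chromosome 8 (1454462 to 1454482, plus strand) with scores of 144.5 at 0 min, 10.3 at 30 min from ssRNase replicate 1 alone, and 112.7 at 60 min. The next, on chromosome 20 (12745461 to 12745486, plus strand) and chromosome 16 (2106833 to 2106867, minus strand), were supported at 30 min by dsRNase replicate 2 alone and scored 121.6, 17.4 and 91.7, and 140.5, 22.7 and 81.9, at 0, 30 and 60 min. These loci were chosen for high ranks at 0 and 60 min among loci with a single call set at 30 min. Their low score at 30 min between high scores therefore follows from the choice and is not a finding.

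SsRNase called few of the returning loci. Of the 487, 8 and 7 had a 60-min call in replicates 1 and 2 (1.64% and 1.44%), and 22 and 21 had a 0-min call (4.52% and 4.31%). All constant loci had shares of 26.5% and 30.2% for 60 min, and 36.7% and 30.9% for 0 min, a mean difference of -28.1 ± 3.13 percentage points (SD over 4 sets). That difference is a description, because the rule itself bars a 30-min ssRNase site, and it removed 67 loci for one.

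The next comparisons held both classes to the same rule, and they were chosen after seeing the data. In the first, 30-min ssRNase calls were ignored in both classes. The 554 loci with no dsRNase call at 30 min then had shares of 6.50% and 4.51% (60 min) and 9.21% and 8.48% (0 min), lower than all constant loci in 4 of 4 sets, with a mean difference of -23.9 ± 3.32 points. With constant loci weighted to the same width classes it was -8.24 ± 1.77 points, again in 4 of 4 sets. Against loci with 1 dsRNase set at 30 min it was -2.89 ± 1.57 points, and -1.46 ± 1.02 with the width weighting. An exact two-sided sign-flip permutation test gave p = 0.125 for each of these, the smallest that 4 sets allow, so none could pass 0.05.

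In the second, no class had a 30-min ssRNase call. The 4063 constant loci of this kind had shares of 3.59% and 4.58% (60 min) and 11.9% and 6.92% (0 min). The returning loci were lower in 4 of 4 sets, with a mean difference of -3.77 ± 2.45 points, and of -1.63 ± 1.195 points with the width weighting (exact p = 0.125 for each). Against the 1758 such loci with 1 dsRNase set at 30 min the mean difference was -0.322 ± 1.06 points, with 1 of 4 sets lower (exact p = 1). The size of the gap in ssRNase calls thus depended on how 30-min ssRNase calls and width were handled.

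**Figure D3:**
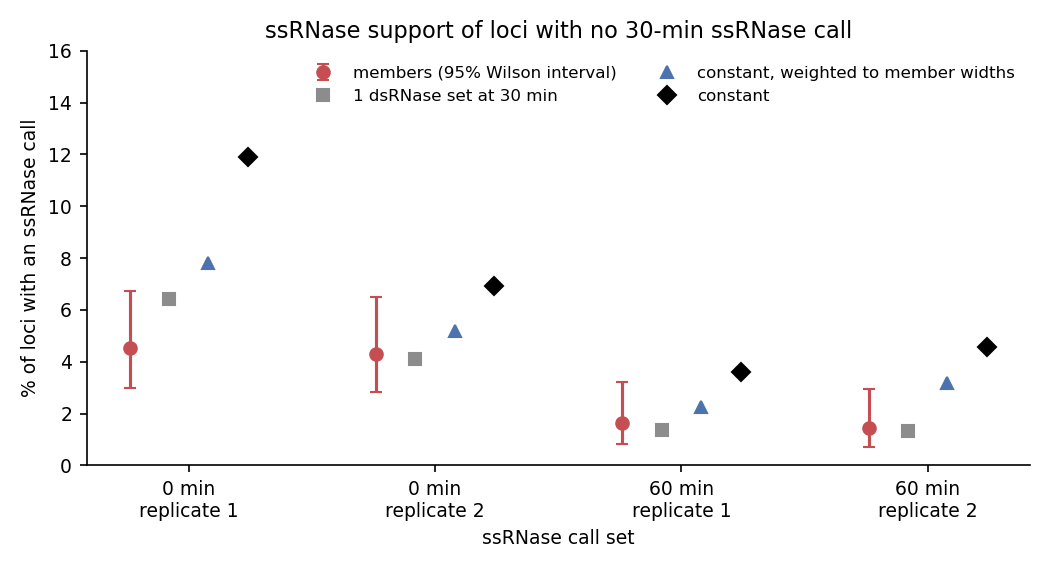
Points give the share of loci with an ssRNase call in each ssRNase set of 0 and 60 min, for classes with no 30-min ssRNase call; bars on the returning loci (members) are 95% Wilson intervals for counting error. The returning loci sit at 1.44% to 4.52%, and the width-weighted constant loci at 2.27% to 7.79%, higher in all 4 sets.

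The returning loci had fewer ssRNase calls at 60 min than at 0 min, and so did constant loci with no 30-min ssRNase call. As a percentage of that class's share, the returning loci stood at 45.7 and 31.4 (60 min), against 38.0 and 62.3 (0 min), and the times overlapped. An exact two-sided permutation test gave p = 0.667 (n = 2 per time; smallest possible 0.333). The 95% Wilson intervals of the returning loci's shares were 0.835 to 3.21% and 0.698 to 2.94% (60 min), and 3.00 to 6.74% and 2.84 to 6.50% (0 min), and cover counting error only. No returning locus had ssRNase calls in all 4 sets, 5 had them in 3, 5 in 2, 33 in 1 and 444 in none. The loci named above for their score rank held 5 of the 8 loci called at 60 min in replicate 1 and 4 of the 7 in replicate 2. The score belongs to the merged site, ssRNase calls included, so rank and ssRNase calls may not be independent. Of the 5 loci called in 3 sets, 4 are among them, on chromosomes 17, 8, 6 and 19. The other one lay on chromosome 21 (1272479 to 1272554, plus strand, 76 nt) and scored 33.9 at 60 min and 70.5 at 0 min.

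The surroundings of the returning loci were examined to ask whether the whole region lost calls at 30 min or the locus alone. The 487 loci lay in 438 of 21400 regions, 393 with 1 returning locus, 42 with 2, 2 with 3 and 1 with 4. Of these regions 351 had a 30-min site elsewhere and 87 had none. In 49 of the 87 the returning locus was all there was, so the rule itself left them empty at 30 min. Of the 389 regions with other loci, 38 (9.77%) had no 30-min site. Over all regions on chromosomes with 0- and 60-min sites, those of a single locus included, 1316 of 10146 (13.0%) had none. With single-locus regions included, the share in the 438 was 19.9%. Of the 60 other loci in these 38, 55 had a 0-min site and 22 a 60-min site.

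Outside the returning loci, the 438 regions gave a smaller part of all dsRNase calls at both treated times than at 0 min. In replicates 1 and 2 they held 6.31% and 6.20% of a set's calls (0 min), 4.67% and 5.23% (30 min), and 5.04% and 5.21% (60 min). The sets of 30 and 60 min did not overlap those of 0 min, and overlapped each other. By two-sided exact permutation, 30 against 0 min and 60 against 0 min each had p = 0.333, the smallest possible with 2 sets per time, and 60 against 30 min had p = 1. The 4752 regions with another locus of 0 and 60 min but no returning one held 64.0% and 61.4%, 58.0% and 67.6%, and 60.0% and 64.2% of calls at 0, 30 and 60 min, and there the sets of the 3 times overlapped. The 438 regions were chosen through a locus without a 30-min site and the 4752 through one that had such a site. Calls elsewhere in a region may not be independent of that choice, so the shares are descriptions.

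**Figure D4:**
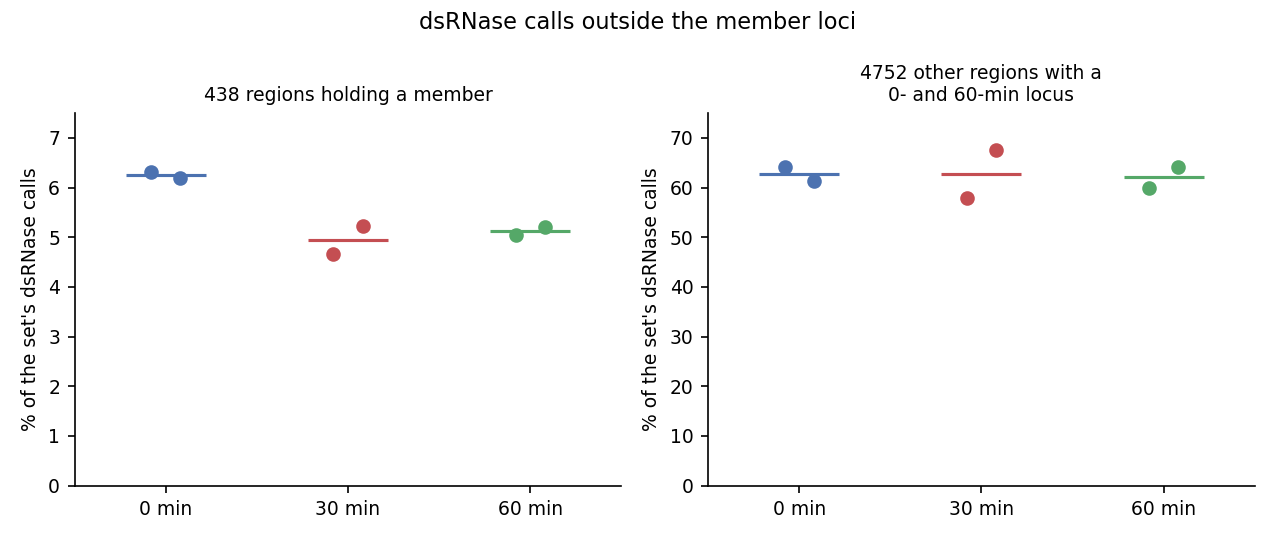
Points give, for each dsRNase set (replicates 1 and 2 side by side, mean as a line), the share of its calls that fell in a class of regions outside the returning (member) loci. In the 438 regions of returning loci the values are 6.20% to 6.31% at 0 min, 4.67% to 5.23% at 30 min and 5.04% to 5.21% at 60 min; the y axes of the panels differ and both start at 0.

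Region by region, limma was fitted to log2 dsRNase call numbers outside the returning loci (0.5 calls added, scaled for calls of the set on that strand) over all 4655 regions averaging 2 or more calls, with Benjamini-Hochberg adjustment at 0.05. The average is over all dsRNase sets, so a region with few 30-min calls could pass through its 0-min calls. Those named below on chromosomes 2, 5 and 23 did so, and their p-values carry that limit. Of the 438 regions that hold a returning locus, 247 passed that filter, and of these 9 (3.64%) had fewer calls at 30 than at 0 min and 1 (0.405%) had more. Over all regions tested 1.74% had fewer and 14.8% more. The 247 were chosen through a locus empty at 30 min, and their other calls may not be independent of that choice. The median log2 change was -0.30 in the 247 regions and -0.01 over all, and 182 of the 247 (73.7%) were below zero against 50.8%. Between 60 and 30 min limma called 0 of the 247 regions in either direction (11 more and 10 fewer at an unadjusted p under 0.05), with 0.193% called higher and 0.859% lower over all regions. At 60 against 0 min, 14 (5.67%) had fewer calls and 2 (0.810%) had more, where 7.11% and 16.3% of all regions did. Without 0-min replicate 1 or 2 the 9 became 3 (1.21%) and 4 (1.62%), beside 0.451% and 0.430% over all regions. Without 30-min replicate 1 or 2 they became 14 (5.67%) and 4 (1.62%), beside 3.18% and 1.29%. With regions joined below 200 nt they became 3 (1.88%), beside 0.896%.

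Few regions combined a test past the threshold with a returning locus, and the one with the smallest adjusted p lay on chromosome 2 (17296475 to 17298991, plus strand). Outside its pair of returning loci (17297282 to 17297336 and 17297477 to 17297517) it had dsRNase calls of 7 and 8 (0 min), 1 and 0 (30 min) and 3 and 2 (60 min). The fitted change at 30 min was -3.18 ± 0.48 on the log2 scale (SE; limma adjusted p = 0.000918), and the ratio of calls at 30 over 0 min was 0.0667 (95% exact interval 0.00158 to 0.433, counting error only). It passed with each single set left out. However, this region met the filter on average calls only through its 0-min calls, which limits all of these p-values. Its change from 30 to 60 min did not pass (log2 1.78 ± 0.48, limma adjusted p = 0.145).

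A plus-strand region of 8 loci on chromosome 5 (4390852 to 4392225) had no 30-min site at all. Outside the returning locus (4390930 to 4390980, 51 nt) there were calls of 6 and 4 (0 min), 0 and 0 (30 min) and 1 and 1 (60 min). Calls at 30 min were at least 1.67-fold lower than at 0 min, taking 3 calls per set as the floor (limma adjusted p = 0.00273, and 0.150 and 0.0601 without 0-min replicate 1 or 2). This region met the filter on average calls only through its 0-min calls. A region on chromosome 21 (13762753 to 13766683, minus strand) had more 60-min calls than the other regions named for fewer calls at 30 min. Outside its 25-nt returning locus (13765825 to 13765849) it had calls of 11 and 12 (0 min), 3 and 1 (30 min) and 11 and 5 (60 min). The change at 30 min was -1.97 ± 0.43 (limma adjusted p = 0.00917), which did not pass without 0-min replicate 1 (0.0545) or 30-min replicate 2 (0.113), and that from 30 to 60 min was 1.56 ± 0.43 (limma adjusted p = 0.158).

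A region on chromosome 23 (3099297 to 3101378, plus strand) had 9 and 7, 1 and 1, and 3 and 1 calls at 0, 30 and 60 min. It was lower at 30 than at 0 min (limma adjusted p = 0.00448, and 0.0612 without 0-min replicate 1) and still lower at 60 than at 0 min (0.0181). It too met the filter on average calls only through its 0-min calls. A plus-strand region of chromosome 10 (2174008 to 2175014) had calls of 10 and 11, 4 and 3, and 4 and 6 (limma adjusted p = 0.0136 for 30 against 0 min, not passing without 0-min replicate 2 or either 30-min replicate, at 0.0761, 0.0814 and 0.0589). The single region with more calls at 30 min was also on chromosome 10 (2585806 to 2588369, minus strand), with 5 and 8, 11 and 8, and 10 and 9 calls (log2 0.95 ± 0.28, limma adjusted p = 0.0409). It did not pass without any 1 of the 6 sets, at 0.0677 to 0.167.

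The region with the most returning loci lay on chromosome 24 (8415826 to 8418821, minus strand), with 4 of its 22 loci. These were at 8417412 to 8417438, 8418065 to 8418104, 8418131 to 8418172 and 8418773 to 8418821, and each had 1 call in every dsRNase set of 60 and 0 min and no ssRNase call. Their scores were 17.8, 18.8, 21.0 and 15.9 at 60 min against 66.6, 47.7, 31.3 and 27.5 at 0 min. Every one thus scored lower at 60 min, and their ranks within a list were 43.7 to 55.2 at 60 min and 64.7 to 88.0 at 0 min. The locus at 8418773 lay 9 nt from a 30-min site of 129 nt, and the others 97, 273 and 213 nt from theirs. Elsewhere in the region there were dsRNase calls of 11 and 14 (0 min), 7 and 7 (30 min) and 5 and 9 (60 min), which did not pass the test for 30 against 0 min (log2 -0.37 ± 0.34, limma adjusted p = 0.602). The region as a whole had ssRNase calls of 1 and 4, 0 and 7, and 0 and 0 at 0, 30 and 60 min.

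Both regions with 3 returning loci kept sites around them at 30 min. On chromosome 1 (18992701 to 18994347, minus strand, 10 loci) the returning loci were 14, 20 and 23 nt wide and lay 106, 51 and 6 nt from a 30-min site. The rest of that region had 6 and 8, 4 and 6, and 7 and 6 dsRNase calls at 0, 30 and 60 min. On chromosome 18 (10501784 to 10504475, plus strand, 14 loci) they were 30, 20 and 9 nt wide, and the rest had 11 and 9, 6 and 10, and 5 and 7 calls. Both thus had 30-min sites among the returning loci, 7 in the first region and 10 in the second. A minus-strand region of 48 loci on chromosome 25 (3199826 to 3206341) held 2 returning loci, and its rest had dsRNase calls of 36 and 44 (0 min), 36 and 32 (30 min) and 43 and 40 (60 min). One of 35 loci on chromosome 1 (20973437 to 20978013, minus strand) also held 2, and its rest had 26 and 30, 16 and 21, and 18 and 19 calls. Both of its returning loci had counterparts of equal width and score in another region of that chromosome (21238530 to 21242812, minus strand).

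Returning loci occurred on all 27 chromosomes, making up from 2.10% (chromosome 11) to 6.25% (chromosome 24) of the loci called at 0 and 60 min. Of the 256 in regions of at least 1000 nt, 39.1% lay in the 5′ part when the region was cut into 3 equal parts, 33.6% in the middle and 27.3% in the 3′ part. Constant loci had 36.3%, 30.3% and 33.3% there. The site patterns around 13 returning loci (2.67%), meaning the widths and gaps of a site and its neighbours in 1 list, matched those of another place, against 6.42% of all loci called at 0 and 60 min. Some returning loci outside the 13 also had apparent copies. On chromosome 1, those at 20975007 and 20976124 had the widths and scores of those at 21240091 and 21241208. The locus at 23654536 likewise matched that at 23686071. The 2.67% thus leaves out some likely copies. Reads could be shared between copies.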

How the data were processed

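PIP-seq sites of 24 libraries were analysed from 3 lists, 1 per time. Cutadapt 1.2.1, TopHat2 2.0.10 and the build mm10, a mouse build, are named in the submitters' processing notes; the build of the coordinates and the peak caller are not given in the sources used here. Positions, strand and merged call names stand in the deposited lists beside a score made by the authors, with no stated unit. Sequencing depth is unknown, and no genes or sequences were matched, since the reference table is of another assembly with 26 chromosomes. Coordinates are printed 1-based. Each name type (time, RNase, replicate) was taken as 1 call set; which short label is the protein-bound state was not settled.

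Loci join same-strand sites that share at least 1 nt; regions join those with gaps below 500 nt. Region calls were fitted with limma 3.58.1 (R 4.3.3; mean trend, 3 times in 1 fit), tried on simulated calls. Other tests were exact permutations over call sets (scipy 1.17.1). The loci, lists and tests were chosen with earlier results of these data known. Named loci were the 10 best ranked beyond 500 nt of a 30-min site, the 5 widest, the 5 with most ssRNase sets, the 3 nearest to a 30-min site and the 3 best ranked with 1 set at 30 min; named regions had the most returning loci or the smallest adjusted p. Same-numbered dsRNase replicates did not deviate together at every time (correlations of -0.02, 0.02 and 0.20 over 4655 regions for 0 and 30, 0 and 60, and 30 and 60 min), so replicate numbers were not taken to pair samples.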

Additional observations from a re-analysis of the deposited data

How the results depend on the processing

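The number of returning loci depended on the settings. It was 423 to 554 with an overlap of at least 10 nt, sites up to 10 nt apart joined, scaffolds included, or 30-min sites with ssRNase calls alone allowed. It was 308 and 111 with no 30-min site within 50 or 500 nt, and 1589 with only sites scoring above the median of each list kept, where weak 30-min sites were removed. It was 2867 when 30-min presence had to rest on both dsRNase replicates, a setting chosen after seeing the data. Leaving out 1 replicate at a time gave 630 to 1812. The ssRNase difference was below 0 in 8 settings that changed the compared loci, the score limit, the distance or the sets, from -7.09 to -29.2 points, with 3 sets from -26.8 to -29.2. It was -5.34 ± 1.38 against width-weighted loci with 1 dsRNase set at 30 min, and -0.322 and, width-weighted, -0.036 against such loci without 30-min ssRNase calls, with 1 of 4 sets lower; these were added after seeing the data. Regions with fewer calls outside the returning loci at 30 min numbered 3 with regions joined below 200 nt, and 3 to 14 with a replicate left out. With the returning loci's own calls counted, 33 of 297 regions (11.1%, against 2.27% over all regions tested) had fewer at 30 min. In that setting 2 of the 297 (0.673%, against 0.213% over all) had more at 60 than at 30 min. The rule builds both in. With a prior of 1 call, 1 of 247 regions (0.405%, against 0.580% over all) had more at 60 than at 30 min. With the replicate number as a block, 13 regions (5.26%; 2.53% over all regions) had fewer at 30 min and 1 (0.405%; 0.344% over all) had more at 60 than at 30 min. The causes were not tested, other than by what each setting removes. Without read counts, depth sets no limit that could be given.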
